A study of Homo sapiens with 15 samples.

Results

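The 39 genes described here encode the machinery of autophagy and of the lysosome: 24 act in building the autophagosome or in loading its cargo, 12 in the lysosome itself, and 3 are transcription factors that act on both. They were taken by current or former gene symbol, and each was read from 1 probe set, the brightest single-symbol set on average across the 15 arrays. All 39 were measured, among 19775 genes in the table. None of their values was used to choose them, but the list was drawn up with earlier results of these data known.

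A549 is an established human lung carcinoma line, labelled as lung epithelial. The cells were seeded 24 h ahead of treatment and then received the HSP90 inhibitor geldanamycin or the solvent DMSO, and RNA was hybridised to Affymetrix HG-U133 Plus 2.0 arrays. There were 3 arrays in each of 5 groups: 40 nM geldanamycin for 24 h, vehicle for 24 h, and vehicle, 10 nM and 40 nM for 48 h. Per the labels 40 nM is the IC50 and 10 nM the IC20, vehicle was DMSO at 0.4%, and no genotype differs between groups. The labels do not say whether replicates were separate cultures, and p-values therefore reflect only how far these arrays scatter, possibly for technical reasons.

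In macroautophagy a kinase complex and a lipid kinase complex start a membrane sac, which grows with lipid supplied by transfer proteins and is coated with small ubiquitin-like proteins of the ATG8 family. Cargo receptors bind both the coat and ubiquitinated cargo, and the closed autophagosome fuses with a lysosome, an organelle acidified by the V-ATPase proton pump and filled with hydrolases. Many lysosomal genes carry a motif known as CLEAR, to which the transcription factors TFEB, TFE3 and MITF bind.

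The epithelial label was checked against markers. Of 6 epithelial markers 5 lay above the dimmest 40% of genes, with KRT18 brightest at a mean log2 value of 13.7. Of 4 measured leukocyte markers 0 did so, of 6 endothelial markers 1 (PECAM1, 5.37), and of 6 fibroblast markers 3, with COL1A1 brightest at 8.26. Markers also moved with the groups, here as log2 changes from vehicle past limma's adjusted p of 0.05. Of the epithelial ones 5 rose and 1 fell with 40 nM at either time, and at 10 nM 2 rose and 2 fell, where CDH1 rose by 2.82 and KRT19 fell by 2.41. Of the fibroblast ones 2 rose at 24 h (COL1A1 by 0.50 and PDGFRB by 0.34), 2 fell at 10 nM (LUM by 3.45 and COL1A1 by 0.44), and at 40 nM and 48 h COL1A1 rose by 0.35 and LUM fell by 0.84. CD14 rose by 0.86 at 40 nM and 48 h, the leukocyte markers otherwise did not pass, and of the endothelial ones 0 passed in any comparison with vehicle. The mean level of the fibroblast list per array was 4.64 to 4.78 with 40 nM and 4.54 to 4.64 with vehicle at 24 h, and 5.62 to 5.69 with vehicle, 4.80 to 5.05 at 10 nM and 5.48 to 5.63 at 40 nM at 48 h. That of the leukocyte list was 3.47 to 3.69 with 40 nM and 3.56 to 3.69 with vehicle at 24 h, and 4.35 to 4.45 with vehicle, 4.27 to 4.35 at 10 nM and 4.53 to 4.64 at 40 nM at 48 h. The part of these markers in the results was not tested.

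Array means lay between 5.13 and 5.14 at 24 h and at 5.52 at 48 h, so levels are set against each other only within a time. The 10 nM arrays stood apart in control transcripts. Those spiked in with poly-A tails before labelling averaged 3.37 ± 0.04 at 10 nM and 5.93 ± 0.06 with vehicle at 48 h (SD, n = 3 each), and the 3′ minus 5′ difference of ACTB was 2.68 ± 0.03 and 0.35 ± 0.06. That of GAPDH did not stand apart, at 0.129 ± 0.004 at 10 nM and 0.147 ± 0.026 with vehicle at 48 h. All 3 arrays of the 10 nM group share the poly-A and ACTB values. The dose and whatever set these arrays apart therefore cannot be told apart in any 10 nM value below, and no value without them can be given.

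At 24 h of 40 nM geldanamycin these genes moved mostly upward: 19 of the 39 rose, 6 fell and 14 did not pass the test (limma, adjusted p below 0.05). Over all 19775 genes 31.5% passed, 14.8% higher and 16.7% lower. The median log2 change of the 39 was 0.17, beside -0.01 over all genes. By their mean over all 15 arrays, all 39 lie above the dimmest 40% of genes, and among the 11865 genes that do, 48.1% passed. That mean spans both times, and a member can be dimmer at 24 h: MITF averaged 4.68 with vehicle and 5.05 with 40 nM there. The lysosomal genes leaned upward, with 9 rises and 0 falls of 12 and a median of 0.31. Of the 24 autophagy genes 10 rose and 5 fell. For 26 of the 39 the values of the 2 groups did not overlap, beside 37.6% of all genes. In bulk RNA, a change in how many cells express a gene cannot be told apart from a change in RNA per cell.

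At 48 h both doses were set against the same 3 vehicle arrays. At 10 nM 5 of the 39 rose and 10 fell, with a median of -0.08, where 26.3% of all genes passed, 14.4% higher and 11.9% lower. At 40 nM 13 rose and 8 fell, with a median of -0.01, where 21.3% of all genes passed, 10.5% higher and 10.7% lower. Among the 11865 brighter genes the shares were 39.6% at 10 nM and 32.7% at 40 nM. The lysosomal genes again leaned upward at 40 nM, with 7 rises and 1 fall of 12, against 2 rises and 2 falls at 10 nM. Groups did not overlap for 28 members at 10 nM and 30 at 40 nM, beside 40.2% and 38.8% of all genes.

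**Figure D1:**
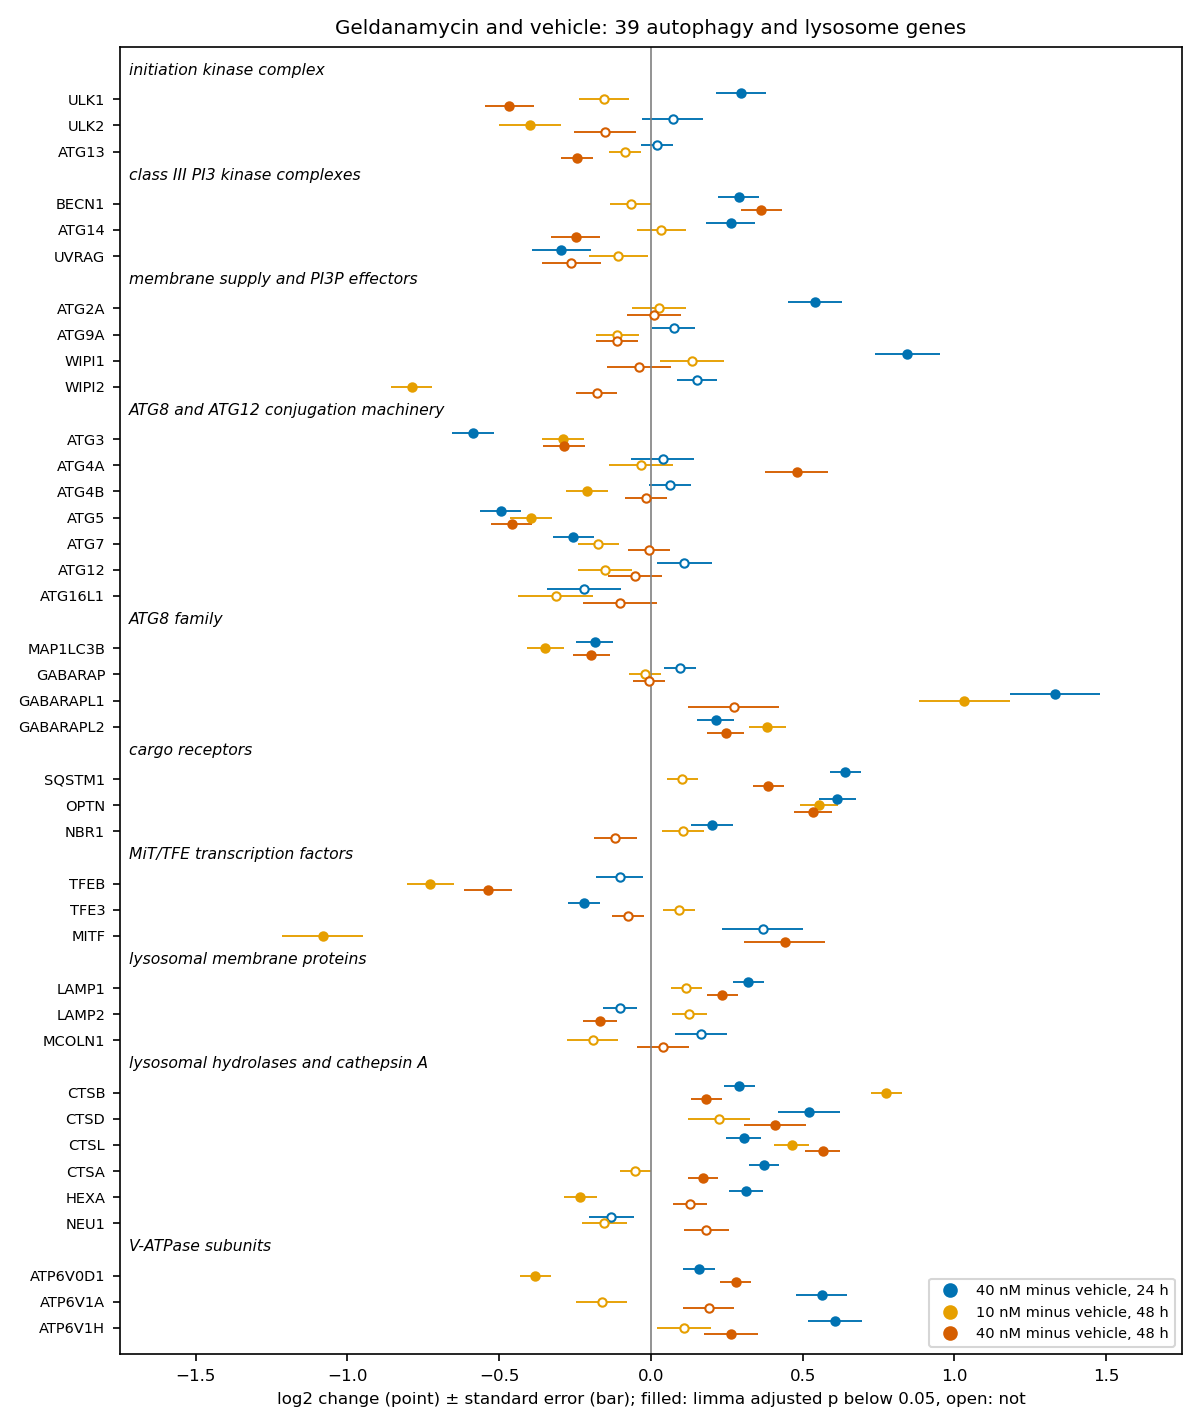
Log2 change from vehicle of each of the 39 genes, ordered by role (points, with bars of 1 standard error; filled points passed limma's adjusted p of 0.05), for 40 nM at 24 h, 10 nM at 48 h and 40 nM at 48 h. GABARAPL1 at 24 h lies farthest right at 1.33 and MITF at 10 nM farthest left at -1.08.

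Across the 3 comparisons with vehicle, 33 of the 39 genes passed at least once. In the single comparisons 48.1%, 39.6% and 32.7% of the 11865 brighter genes passed. The share of all genes that passed at least once, or in all 3, was not counted, so these patterns describe the members alone. CTSB, CTSL, GABARAPL2 and OPTN rose in all 3, and ATG3, ATG5 and MAP1LC3B fell in all 3. ULK1, ATG14, HEXA, MITF and ATP6V0D1 passed in opposite directions in different comparisons. ATG9A, ATG12, ATG16L1, GABARAP, MCOLN1 and NEU1 passed in none.

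Among the transcription factors, TFEB, the best known activator of lysosomal genes, fell at 48 h at both doses, while its relatives moved in other ways. On the log2 scale TFEB stood at 7.06, 7.04 and 6.94 with vehicle at 48 h, 6.32, 6.34 and 6.20 at 10 nM and 6.35, 6.52 and 6.57 at 40 nM. Every treated array lay below every vehicle array. TFEB fell by 0.73 ± 0.08 (limma adjusted p = 7.7e-06) at 10 nM and by 0.54 ± 0.08 (limma adjusted p = 0.00018) at 40 nM. At 24 h it stood at 5.99, 5.83 and 5.92 on the 40 nM arrays, against 6.14, 5.92 and 5.98 on the vehicle arrays, which overlap, with a change of -0.10 ± 0.08 (95% interval -0.27 to 0.07). The other single-symbol probe set of TFEB was also lower at 48 h, by less: -0.22 ± 0.09 at 10 nM and -0.20 ± 0.09 at 40 nM.

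MITF, which in other cells drives pigment cell and osteoclast genes, fell at 10 nM and rose at 40 nM. It stood at 7.16, 7.05 and 7.12 with vehicle at 48 h, 5.86, 6.12 and 6.11 at 10 nM and 7.51, 7.59 and 7.56 at 40 nM. The 10 nM arrays all lay below vehicle and the 40 nM arrays all above it. The changes were -1.08 ± 0.13 (limma adjusted p = 2.9e-05) at 10 nM and 0.44 ± 0.13 (limma adjusted p = 0.030) at 40 nM, and a second probe set gave -0.75 ± 0.10 and 0.45 ± 0.10. The last of its 3 sets, dim at a mean log2 value of 2.67, gave 0.09 ± 0.12 and 0.12 ± 0.12. At 24 h the values were 5.05, 4.79 and 5.31 on the 40 nM arrays, against 4.85, 4.82 and 4.38 on the vehicle arrays, which overlap (0.37 ± 0.13, limma adjusted p = 0.051). MITF did pass at 24 h in 6 of 25 alternatives (adjusted p = 0.0045 to 0.044), among them with its probe sets averaged (0.23, adjusted p = 0.0045). MITF no longer passed at 40 nM and 48 h without 40 nM 48 h replicates 1, 2 and 3 and vehicle 48 h replicates 1, 2 and 3, each left out alone (adjusted p = 0.061 to 0.095) or with the replicate block (0.44, adjusted p = 0.054). TFE3 stood at 10.18, 10.13 and 10.09 on the 40 nM arrays at 24 h, against 10.29, 10.37 and 10.40 on the vehicle arrays, with every 40 nM array lower, and fell by 0.22 ± 0.05 (limma adjusted p = 0.0045). At 48 h it stood at 10.71, 10.71 and 10.71 with vehicle, 10.81, 10.84 and 10.76 at 10 nM and 10.59, 10.64 and 10.67 at 40 nM, and neither dose passed against vehicle. TFE3 no longer passed at 24 h with its probe sets averaged (-0.14, adjusted p = 0.20) or with the compared groups alone (-0.22, adjusted p = 0.075). TFE3 did pass at 10 nM in 1 of 25 alternatives (adjusted p = 0.037).

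The binding motif of these factors was looked up in the promoters, so that the sequence can be read beside the levels of the genes that carry it. Windows of 300 bases, 250 before and 50 after the gene start, were taken from RefSeq (GRCh38.p14) for 33 of the 39 genes, and LAMP2, CTSB, HEXA, ATP6V1A, ATP6V1H and UVRAG are not in that table. The CLEAR core, searched as TCACGTG on both strands (so CACGTGA counts too), lay in 1043 of 27305 promoters, 3.82%. It lay in 8 of the 33 member windows, in 6 of the 7 lysosomal members with a window and in 2 of the other 26. Of 102 other pathway genes with a window 22 held it. The stretches below are printed 5′ to 3′ on the gene's own strand, with each match in capitals.
LAMP1: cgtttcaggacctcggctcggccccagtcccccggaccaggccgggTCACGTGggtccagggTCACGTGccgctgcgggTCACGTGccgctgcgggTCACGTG
MCOLN1: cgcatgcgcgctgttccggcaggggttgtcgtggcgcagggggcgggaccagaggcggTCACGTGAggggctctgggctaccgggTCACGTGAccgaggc
CTSD: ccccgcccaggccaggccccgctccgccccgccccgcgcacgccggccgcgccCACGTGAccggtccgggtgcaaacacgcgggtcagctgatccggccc
CTSA: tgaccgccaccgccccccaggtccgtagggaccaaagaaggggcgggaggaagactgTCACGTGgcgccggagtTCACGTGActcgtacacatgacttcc
NEU1: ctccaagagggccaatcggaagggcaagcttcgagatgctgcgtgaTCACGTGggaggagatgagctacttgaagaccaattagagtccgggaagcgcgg
ATP6V0D1: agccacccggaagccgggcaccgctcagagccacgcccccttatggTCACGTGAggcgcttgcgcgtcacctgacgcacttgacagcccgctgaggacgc
ATG14: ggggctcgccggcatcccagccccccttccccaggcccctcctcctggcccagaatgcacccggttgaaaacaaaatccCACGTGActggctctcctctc
ATG3: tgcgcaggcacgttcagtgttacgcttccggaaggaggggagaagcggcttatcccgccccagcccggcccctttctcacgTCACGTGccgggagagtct

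They lie at chr13:113297000-113297102 (LAMP1, plus strand), chr19:7522524-7522623 (MCOLN1, plus strand), chr11:1763928-1764027 (CTSD, minus strand), chr20:45891235-45891334 (CTSA, plus strand), chr6:31862895-31862994 (NEU1, minus strand), chr16:67481164-67481263 (ATP6V0D1, minus strand), chr14:55411831-55411930 (ATG14, minus strand) and chr3:112561963-112562062 (ATG3, minus strand). LAMP1 holds 6 matches in its window, of which 4 fall in the stretch shown, and MCOLN1 and CTSA hold 2 each. ATG3 also holds 2, of which 1 falls in the stretch shown. At 24 h 5 of the 8 genes with a core rose, 1 fell and 2 did not pass, with a median change of 0.21. Of the 25 genes with a window and no core, 10 rose, 4 fell and 11 did not pass, with a median of 0.11. At 10 nM 0 of the 8 rose and 2 fell, with a median of -0.10, and of the 25 without a core 4 rose and 7 fell, with a median of -0.09. At 40 nM and 48 h 4 of the 8 rose and 2 fell, with a median of 0.18, and of the 25 7 rose and 5 fell, with a median of -0.04. Of all genes 14.8% rose and 16.7% fell at 24 h, 14.4% and 11.9% at 10 nM, and 10.5% and 10.7% at 40 nM and 48 h. The split was not tested, and a match in these letters is a description, not a site of binding.

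**Figure D2:**
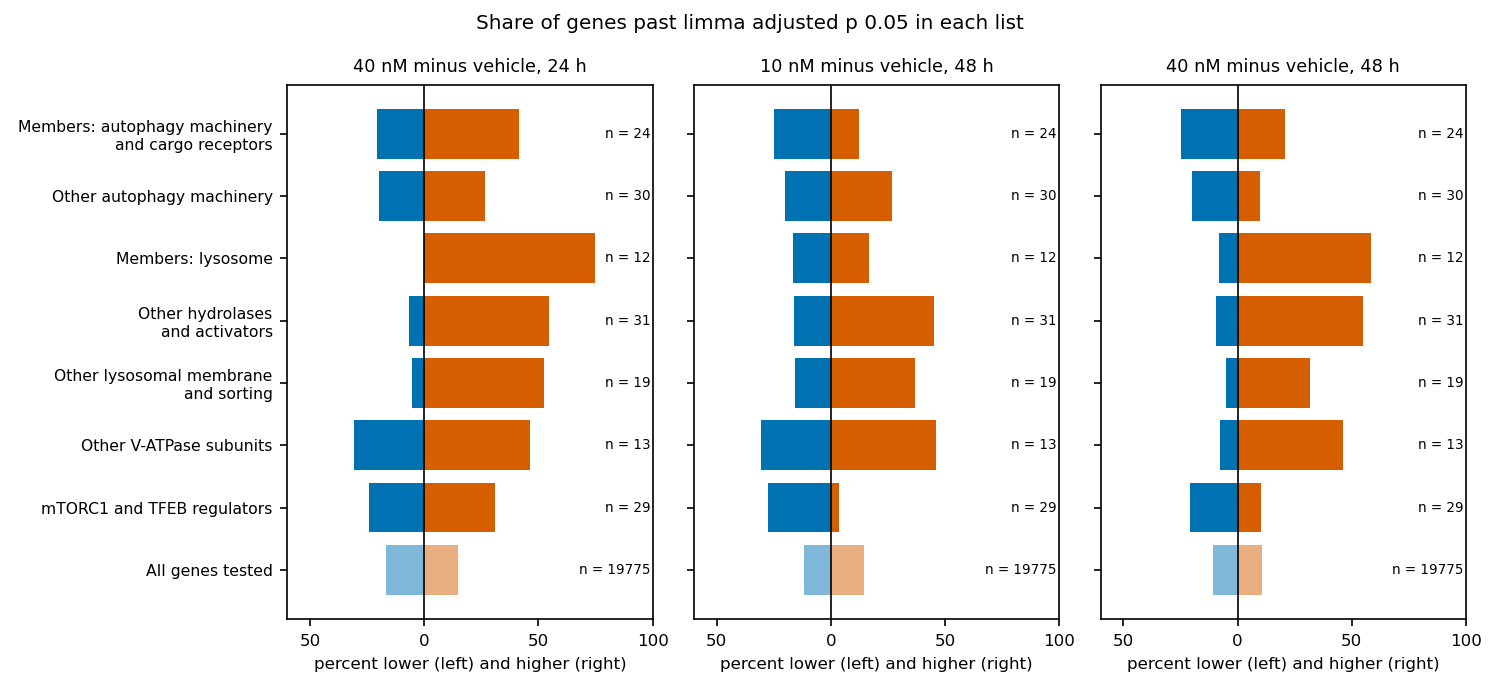
Percent of genes past limma's adjusted p of 0.05 that were lower (bars to the left of 0) or higher (bars to the right) than vehicle, for the members at the lysosome and in autophagy, 5 lists of other pathway genes and all 19775 genes. At 24 h the lysosomal members reach 75% higher with 0 lower, beside 14.8% and 16.7% over all genes.

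Of the lysosomal proteases, cathepsins L and B rose in all 3 comparisons with vehicle. CTSL, encoding the cysteine protease cathepsin L (chr9:87726119-87731469, GRCh38), stood at 10.92, 10.94 and 10.87 on the 40 nM arrays at 24 h, against 10.57, 10.64 and 10.61 on the vehicle arrays, and at 10.88, 10.99 and 11.01 with vehicle at 48 h, 11.39, 11.46 and 11.43 at 10 nM and 11.53, 11.45 and 11.60 at 40 nM. In all 3 comparisons every treated array lay above every vehicle array. The rises were 0.31 ± 0.06 (limma adjusted p = 0.00071) at 24 h, 0.46 ± 0.06 (limma adjusted p = 2.6e-05) at 10 nM and 0.57 ± 0.06 (limma adjusted p = 7.0e-06) at 40 nM and 48 h, the last 1.48-fold.

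CTSB, encoding cathepsin B, another cysteine protease, rose most at the lower dose. It stood at 11.30, 11.36 and 11.27 on the 40 nM arrays at 24 h, against 11.02, 11.01 and 11.04 on the vehicle arrays, and at 10.84, 10.74 and 10.77 with vehicle at 48 h, 11.61, 11.54 and 11.54 at 10 nM and 10.97, 10.94 and 10.99 at 40 nM. Both 48 h doses lay above vehicle, and the 10 nM arrays lay above the 40 nM arrays. The rises were 0.29 ± 0.05 (limma adjusted p = 0.00042) at 24 h, 0.78 ± 0.05 (limma adjusted p = 6.4e-08) at 10 nM and 0.18 ± 0.05 (limma adjusted p = 0.019) at 40 nM and 48 h. Its 4 other single-symbol probe sets were higher in each comparison too, by 0.29 ± 0.07 to 0.70 ± 0.09 at 24 h. CTSB no longer passed at 40 nM and 48 h without 40 nM 48 h replicates 1 and 3 and vehicle 48 h replicates 2 and 3, each left out alone (adjusted p = 0.056 to 0.084).

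CTSD, encoding the aspartic protease cathepsin D, stood at 7.65, 7.52 and 7.28 on the 40 nM arrays at 24 h, against 7.12, 6.93 and 6.84 on the vehicle arrays, and at 7.33, 7.35 and 7.29 with vehicle at 48 h, 7.73, 7.51 and 7.40 at 10 nM and 7.73, 7.78 and 7.68 at 40 nM. It rose by 0.52 ± 0.10 (limma adjusted p = 0.0011) at 24 h and by 0.41 ± 0.10 (limma adjusted p = 0.0096) at 40 nM and 48 h, where the groups do not overlap. At 10 nM it was 0.22 ± 0.10 from vehicle and did not pass (limma adjusted p = 0.14). CTSD did pass at 10 nM in 2 of 25 alternatives (adjusted p = 0.0018 to 0.047). CTSA, encoding the carboxypeptidase that shields sialidase and beta-galactosidase in the lysosome, rose by 0.37 ± 0.05 (limma adjusted p = 3.9e-05) at 24 h and 0.17 ± 0.05 (limma adjusted p = 0.024) at 40 nM and 48 h. HEXA, a subunit of the hexosaminidase that breaks down gangliosides, rose by 0.31 ± 0.06 (limma adjusted p = 0.00045) at 24 h and fell by 0.23 ± 0.06 (limma adjusted p = 0.0057) at 10 nM. At 40 nM and 48 h HEXA was 0.13 from vehicle and did not pass (limma adjusted p = 0.13). It did pass there in 4 of 25 alternatives (adjusted p = 0.027 to 0.047). NEU1, the sialidase, passed against vehicle in none, with changes of -0.13 ± 0.07, -0.15 ± 0.07 and 0.18 ± 0.07 at 24 h, at 10 nM and at 40 nM and 48 h. NEU1 did pass at 10 nM in 2 of 25 alternatives (adjusted p = 0.017 to 0.040). NEU1 did pass at 40 nM and 48 h in 2 of 25 alternatives (adjusted p = 0.0070 to 0.011). CTSA no longer passed at 40 nM and 48 h without 40 nM 48 h replicates 1 and 3 and vehicle 48 h replicates 2 and 3, each left out alone (adjusted p = 0.062 to 0.10), without _x_at and _s_at sets (0.17, adjusted p = 0.052) or with the compared groups alone (0.17, adjusted p = 0.064). HEXA no longer passed at 24 h with its probe sets averaged (0.04, adjusted p = 0.76) or without _x_at and _s_at sets (-0.05, adjusted p = 0.82). HEXA no longer passed at 10 nM with its probe sets averaged (-0.11, adjusted p = 0.26) or without _x_at and _s_at sets (-0.01, adjusted p = 0.98).

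The lysosomal membrane proteins differed among themselves and, for LAMP2, among probe sets. LAMP1, an abundant glycoprotein of the lysosome's limiting membrane, rose by 0.32 ± 0.05 (limma adjusted p = 0.00021) at 24 h and by 0.24 ± 0.05 (limma adjusted p = 0.0042) at 40 nM and 48 h. At 10 nM LAMP1 was 0.12 from vehicle and did not pass (limma adjusted p = 0.12), but did in 5 of 25 alternatives (adjusted p = 0.012 to 0.049). LAMP2, its relative, which also serves chaperone-mediated autophagy, was -0.10 ± 0.06, 0.13 ± 0.06 and -0.17 ± 0.06 in the probe set used, at 24 h, at 10 nM and at 40 nM and 48 h, and fell in the last (limma adjusted p = 0.049). The 3 other LAMP2 sets were all higher than vehicle: by 0.59 ± 0.09 to 0.66 ± 0.10 at 24 h, by 0.54 ± 0.07 to 1.09 ± 0.10 at 10 nM and by 0.35 ± 0.07 to 1.16 ± 0.10 at 40 nM and 48 h. The mean of the 4 sets rose by 0.44 at 24 h (limma adjusted p = 6.1e-05) and by 0.46 at 40 nM and 48 h (limma adjusted p = 9.6e-05), and at 10 nM it rose by 0.64 (limma adjusted p = 2.3e-06), so the direction for LAMP2 turns with the probe set. LAMP2 has transcript isoforms, and which of them each set reads was not looked up. MCOLN1, a calcium channel of the lysosome, passed in none, with changes between -0.19 ± 0.09 at 10 nM and 0.17 ± 0.09 at 24 h. MCOLN1 did pass at 24 h in 3 of 24 alternatives (adjusted p = 0.0058 to 0.040). MCOLN1 did pass at 10 nM in 2 of 24 alternatives (adjusted p = 0.021 to 0.045). LAMP1 no longer passed at 40 nM and 48 h without _x_at and _s_at sets (0.20, adjusted p = 0.056). LAMP2 no longer passed at 40 nM and 48 h without any 1 array other than 40 nM 24 h replicate 3 and vehicle 24 h replicates 1 and 3 (adjusted p = 0.053 to 0.18), with cyclic loess (-0.15, adjusted p = 0.071), without _x_at and _s_at sets (-0.17, adjusted p = 0.087), with the replicate block (-0.17, adjusted p = 0.072) or with the compared groups alone (-0.17, adjusted p = 0.068).

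**Figure D3:**
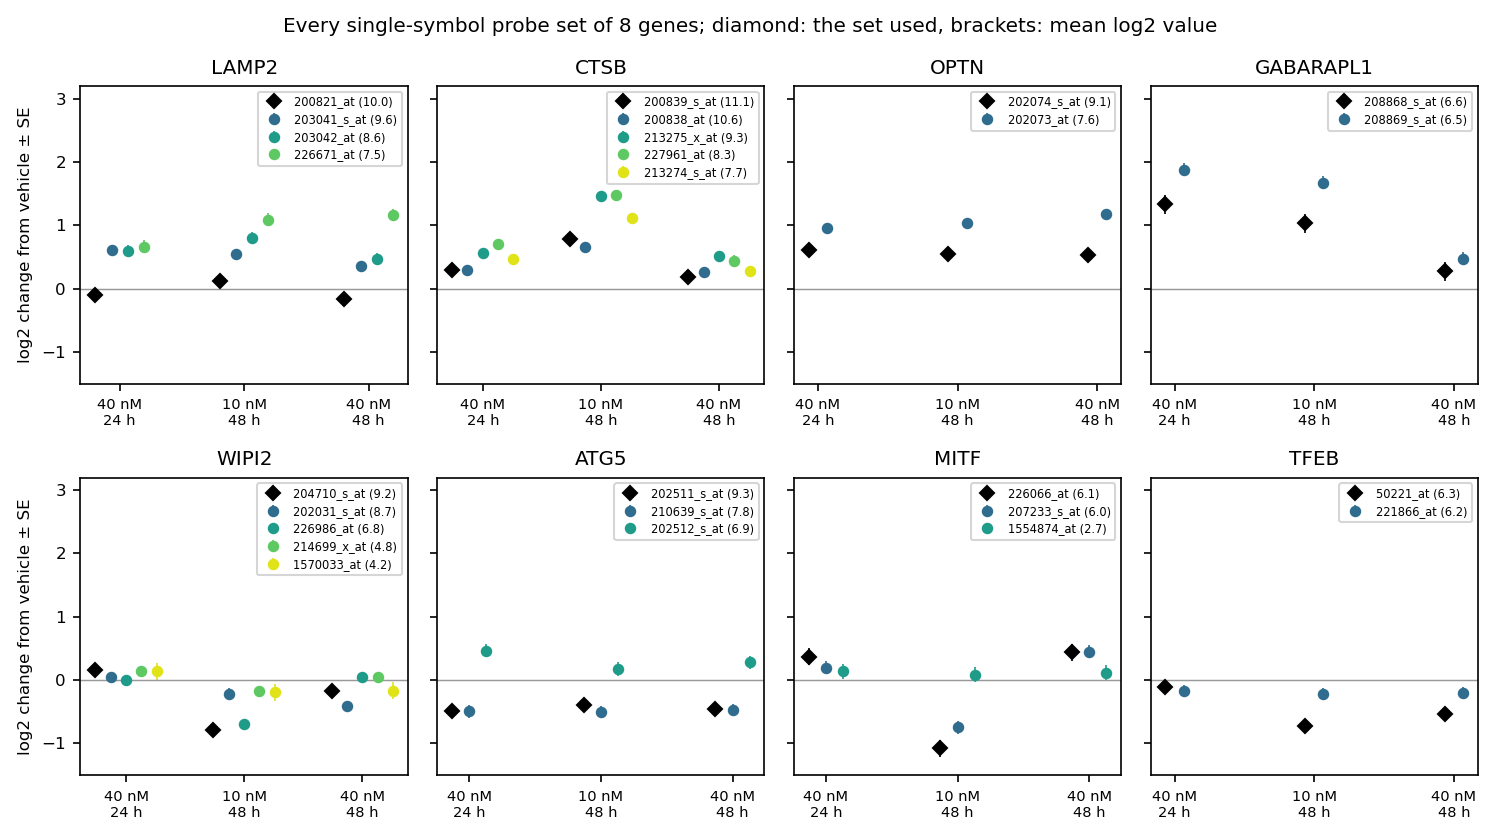
Log2 change from vehicle (points, with bars of 1 standard error) of every single-symbol probe set of 8 genes, with the set used as a diamond and mean log2 values in brackets. The used LAMP2 set lies near 0 while its 3 others lie above 0 in each comparison, and all 5 sets of CTSB lie above 0.

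Of the V-ATPase subunits, ATP6V1A, the catalytic subunit, stood at 10.08, 9.82 and 9.93 on the 40 nM arrays at 24 h, against 9.56, 9.35 and 9.23 on the vehicle arrays, and rose by 0.56 ± 0.08 (limma adjusted p = 0.00011). At 48 h it stood at 9.99, 9.94 and 9.98 with vehicle, 9.83, 9.79 and 9.80 at 10 nM and 10.07, 10.18 and 10.23 at 40 nM, and neither dose passed. ATP6V1A did pass at 10 nM in 1 of 25 alternatives, with its probe sets averaged (-0.49, adjusted p = 0.0027). ATP6V1A did pass at 40 nM and 48 h in 3 of 25 alternatives (adjusted p = 0.024 to 0.044). Its other probe set stood apart at 10 nM, where it was -0.81 ± 0.15 from vehicle, beside -0.16 ± 0.09 for the set used. ATP6V1H, a regulatory subunit, stood at 9.88, 9.81 and 10.13 on the 40 nM arrays at 24 h, against 9.46, 9.31 and 9.23 on the vehicle arrays, and at 9.45, 9.34 and 9.36 with vehicle at 48 h, 9.57, 9.55 and 9.36 at 10 nM and 9.62, 9.68 and 9.65 at 40 nM. It rose by 0.61 ± 0.09 (limma adjusted p = 9.4e-05) at 24 h and by 0.27 ± 0.09 (limma adjusted p = 0.048) at 40 nM and 48 h. For both genes every 40 nM array at 24 h lay above every vehicle array. ATP6V0D1, of the membrane sector, rose by 0.16 ± 0.05 (limma adjusted p = 0.029) at 24 h and 0.28 ± 0.05 (limma adjusted p = 0.0012) at 40 nM and 48 h, and fell by 0.38 ± 0.05 (limma adjusted p = 6.3e-05) at 10 nM. ATP6V0D1 no longer passed at 24 h without 40 nM 24 h replicates 1 and 2 and vehicle 24 h replicates 1, 2 and 3, each left out alone (adjusted p = 0.052 to 0.11), without _x_at and _s_at sets (0.16, adjusted p = 0.058) or with the compared groups alone (0.16, adjusted p = 0.18). ATP6V1H no longer passed at 24 h without _x_at and _s_at sets (0.12, adjusted p = 0.49). ATP6V1H no longer passed at 40 nM and 48 h without any 1 array other than 40 nM 24 h replicates 2 and 3, vehicle 24 h replicates 1 and 3 and 10 nM replicate 3 (adjusted p = 0.057 to 0.14), with array medians subtracted (0.25, adjusted p = 0.054), with a floor on dim values (0.27, adjusted p = 0.053), with its probe sets averaged (0.07, adjusted p = 0.61), without _x_at and _s_at sets (0.04, adjusted p = 0.88) or with the replicate block (0.27, adjusted p = 0.071).

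The genes that start autophagy did not move as a block, and their changes from vehicle ran from -0.47 to 0.36. ULK1, the initiating kinase, rose by 0.30 ± 0.08 (limma adjusted p = 0.012) at 24 h and fell by 0.47 ± 0.08 (limma adjusted p = 0.00086) at 40 nM and 48 h. ULK2, its homologue, fell by 0.40 ± 0.10 (limma adjusted p = 0.0091) at 10 nM, and ATG13, a scaffold of the same complex, fell by 0.24 ± 0.05 (limma adjusted p = 0.0037) at 40 nM and 48 h. In the lipid kinase complex, BECN1 (beclin 1) rose by 0.29 ± 0.07 (limma adjusted p = 0.0041) at 24 h and 0.36 ± 0.07 (limma adjusted p = 0.0013) at 40 nM and 48 h. ATG14, the subunit that directs the complex to autophagosome formation, rose by 0.26 ± 0.08 (limma adjusted p = 0.022) at 24 h and fell by 0.25 ± 0.08 (limma adjusted p = 0.042) at 40 nM and 48 h. UVRAG, the subunit that takes its place in a complex at endosomes, fell by 0.30 ± 0.10 (limma adjusted p = 0.031) at 24 h, with overlapping groups. At 40 nM and 48 h the UVRAG change of -0.26 did not pass (limma adjusted p = 0.074), though the groups did not overlap. It did pass there in 7 of 25 alternatives (adjusted p = 0.015 to 0.050).

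Several of these calls lay near the threshold. ULK1 no longer passed at 24 h without vehicle 24 h replicate 3 (adjusted p = 0.056) or with the compared groups alone (0.30, adjusted p = 0.075). ULK2 no longer passed at 10 nM with its probe sets averaged (-0.16, adjusted p = 0.12) or without _x_at and _s_at sets (-0.13, adjusted p = 0.70). BECN1 no longer passed at 24 h without _x_at and _s_at sets (-0.10, adjusted p = 0.62). BECN1 no longer passed at 40 nM and 48 h without _x_at and _s_at sets (0.00, adjusted p = 0.998). ATG14 no longer passed at 24 h without 40 nM 24 h replicates 1 and 3 and vehicle 24 h replicates 2 and 3, each left out alone (adjusted p = 0.062 to 0.095) or with the compared groups alone (0.26, adjusted p = 0.096). ATG14 no longer passed at 40 nM and 48 h without 40 nM 24 h replicate 1, vehicle 24 h replicate 2, 40 nM 48 h replicates 1 and 2, 10 nM replicate 1 and vehicle 48 h replicates 1, 2 and 3, each left out alone (adjusted p = 0.055 to 0.15), without _x_at and _s_at sets (-0.25, adjusted p = 0.059) or with the replicate block (-0.25, adjusted p = 0.073). UVRAG no longer passed at 24 h without 40 nM 24 h replicates 1 and 2 and vehicle 24 h replicates 1 and 2, each left out alone (adjusted p = 0.060 to 0.15), with the replicate block (-0.30, adjusted p = 0.054) or with the compared groups alone (-0.30, adjusted p = 0.16). The ULK1 and ATG13 calls at 40 nM and 48 h passed in every alternative that measured them.

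WIPI1 and ATG2A, which serve the growing membrane, rose at 24 h. WIPI1, which binds the lipid PI3P on the forming sac (chr17:68421281-68457496), stood at 7.16, 7.12 and 7.30 on the 40 nM arrays at 24 h, against 6.60, 6.12 and 6.34 on the vehicle arrays, and rose by 0.85 ± 0.11 (limma adjusted p = 2.3e-05), or 1.8-fold. ATG2A, a lipid transfer protein, stood at 8.66, 8.60 and 8.65 on the 40 nM arrays at 24 h, against 8.30, 7.97 and 8.02 on the vehicle arrays, and rose by 0.54 ± 0.09 (limma adjusted p = 0.00024). In both genes the 24 h groups do not overlap.

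At 48 h neither gene passed at either dose. WIPI1 stood at 6.69, 6.49 and 6.70 with vehicle at 48 h, 6.75, 6.84 and 6.70 at 10 nM and 6.47, 6.65 and 6.64 at 40 nM, and ATG2A at 8.83, 8.76 and 8.92 with vehicle at 48 h, 8.84, 9.01 and 8.74 at 10 nM and 8.79, 8.86 and 8.89 at 40 nM. The 40 nM arrays of both overlap those of vehicle. WIPI2, which recruits the ATG16L1 complex, stood at 9.63, 9.57 and 9.60 with vehicle at 48 h, 8.74, 8.96 and 8.74 at 10 nM and 9.39, 9.42 and 9.46 at 40 nM, and fell by 0.79 ± 0.07 (limma adjusted p = 8.1e-07) at 10 nM. There all 10 nM arrays lay below vehicle, and 4 other probe sets of WIPI2 were lower too, with changes between -0.18 ± 0.07 and -0.70 ± 0.08. The WIPI2 values at 24 h were 9.01, 9.11 and 9.14 on the 40 nM arrays, against 8.94, 8.99 and 8.87 on the vehicle arrays, which do not overlap, but the change of 0.15 ± 0.07 did not pass (limma adjusted p = 0.11). WIPI2 did pass at 24 h in 1 of 25 alternatives (adjusted p = 0.026). At 40 nM and 48 h its change of -0.18 ± 0.07 did not pass either (limma adjusted p = 0.079). WIPI2 did pass at 40 nM and 48 h in 8 of 25 alternatives (adjusted p = 0.035 to 0.050). ATG9A, the membrane protein of the seed vesicles, passed in none, with changes of 0.07 ± 0.07, -0.11 ± 0.07 and -0.11 ± 0.07 at 24 h, at 10 nM and at 40 nM and 48 h.

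Of the 7 genes of the conjugation machinery, 3 fell and 0 rose at 24 h and at 10 nM, and 2 fell and 1 rose at 40 nM and 48 h. The share that fell was 42.9%, 42.9% and 28.6%, beside 16.7%, 11.9% and 10.7% of all genes and 25.6%, 18.0% and 17.0% of the 11865 brighter genes. ATG3, the E2-like enzyme that attaches ATG8 proteins to lipid, stood at 9.46, 9.36 and 9.54 on the 40 nM arrays at 24 h, against 10.10, 10.10 and 9.92 on the vehicle arrays, and at 10.65, 10.60 and 10.62 with vehicle at 48 h, 10.39, 10.38 and 10.23 at 10 nM and 10.36, 10.32 and 10.33 at 40 nM. Every treated array lay below every vehicle array of its time. ATG3 fell by 0.59 ± 0.07 (limma adjusted p = 1.1e-05) at 24 h, 0.29 ± 0.07 (limma adjusted p = 0.0052) at 10 nM and 0.29 ± 0.07 (limma adjusted p = 0.0071) at 40 nM and 48 h. ATG3 no longer passed at 10 nM with its probe sets averaged (-0.17, adjusted p = 0.14) or without _x_at and _s_at sets (-0.06, adjusted p = 0.83). ATG3 no longer passed at 40 nM and 48 h with its probe sets averaged (-0.01, adjusted p = 0.98) or without _x_at and _s_at sets (0.27, adjusted p = 0.14).

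ATG5, which is joined to ATG12 in the conjugate that guides this attachment, stood at 8.86, 8.81 and 8.95 on the 40 nM arrays at 24 h, against 9.47, 9.34 and 9.31 on the vehicle arrays, and at 9.84, 9.69 and 9.76 with vehicle at 48 h, 9.42, 9.41 and 9.26 at 10 nM and 9.25, 9.32 and 9.34 at 40 nM. Again no treated array reached a vehicle array. ATG5 fell by 0.50 ± 0.07 (limma adjusted p = 5.1e-05), 0.39 ± 0.07 (limma adjusted p = 0.00052) and 0.46 ± 0.07 (limma adjusted p = 0.00022) at 24 h, at 10 nM and at 40 nM and 48 h. Of its 2 other probe sets, 1 had a change of -0.50 ± 0.10 at 24 h and 1 of 0.46 ± 0.10. ATG7, the E1-like enzyme, fell by 0.26 ± 0.07 (limma adjusted p = 0.0099) at 24 h. At 10 nM ATG7 was -0.17 from vehicle and did not pass (limma adjusted p = 0.083), but did in 4 of 25 alternatives (adjusted p = 0.013 to 0.040). Of the proteases that process ATG8 proteins, ATG4A rose by 0.48 ± 0.10 (limma adjusted p = 0.0039) at 40 nM and 48 h and ATG4B fell by 0.21 ± 0.07 (limma adjusted p = 0.037) at 10 nM. ATG12 and its partner ATG16L1, which place the conjugate on the membrane, passed in none, with changes from -0.15 ± 0.09 to 0.11 ± 0.09 for ATG12 and from -0.31 ± 0.12 to -0.10 ± 0.12 for ATG16L1. ATG16L1 did pass at 10 nM in 5 of 24 alternatives (adjusted p = 0.022 to 0.048). ATG5 no longer passed at 24 h with its probe sets averaged (-0.18, adjusted p = 0.13). ATG5 no longer passed at 40 nM and 48 h with its probe sets averaged (-0.22, adjusted p = 0.086). ATG7 no longer passed at 24 h without 40 nM 24 h replicate 2 (adjusted p = 0.052), with its probe sets averaged (-0.15, adjusted p = 0.16) or with the compared groups alone (-0.26, adjusted p = 0.076). ATG4B no longer passed at 10 nM without 40 nM 48 h replicate 2, 10 nM replicates 2 and 3 and vehicle 48 h replicates 1 and 3, each left out alone (adjusted p = 0.051 to 0.14), with its probe sets averaged (-0.05, adjusted p = 0.71), with the replicate block (-0.21, adjusted p = 0.057) or with the compared groups alone (-0.21, adjusted p = 0.059).

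The 4 members of the ATG8 family did not move together. GABARAPL1 (chr12:10212877-10223128) had the largest change from vehicle of the 39 genes. At 24 h it stood at 7.58, 7.61 and 8.02 on the 40 nM arrays, against 6.69, 6.40 and 6.12 on the vehicle arrays, and rose by 1.33 ± 0.15 (limma adjusted p = 7.7e-06), or 2.52-fold. The groups lie far apart. At 48 h it stood at 5.78, 5.87 and 5.67 with vehicle, 6.88, 7.0 and 6.55 at 10 nM and 5.98, 6.08 and 6.10 at 40 nM. It rose by 1.03 ± 0.15 (limma adjusted p = 0.00012) at 10 nM, or 2.05-fold. At 40 nM its 3 arrays also lay above vehicle, but the change of 0.27 ± 0.15 did not pass (limma adjusted p = 0.26). GABARAPL1 did pass at 40 nM and 48 h in 3 of 24 alternatives (adjusted p = 0.022 to 0.030), among them with its probe sets averaged (0.37, adjusted p = 0.022). The other single-symbol set gave 1.88 ± 0.10, 1.68 ± 0.10 and 0.47 ± 0.10 in the same order. GABARAPL1 has a near copy, GABARAPL3, and signal from both on shared probes cannot be told apart.

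GABARAPL2, which shares much of its sequence with GABARAP, rose by smaller amounts. It stood at 10.68, 10.84 and 10.85 on the 40 nM arrays at 24 h, against 10.64, 10.54 and 10.54 on the vehicle arrays, and at 10.73, 10.66 and 10.71 with vehicle at 48 h, 11.11, 11.12 and 11.03 at 10 nM and 10.90, 10.95 and 10.99 at 40 nM. All treated arrays lay above the vehicle arrays of their time. The rises were 0.21 ± 0.06 (limma adjusted p = 0.013) at 24 h, 0.38 ± 0.06 (limma adjusted p = 0.00023) at 10 nM and 0.25 ± 0.06 (limma adjusted p = 0.0086) at 40 nM and 48 h. GABARAPL2 no longer passed at 24 h without 40 nM 24 h replicates 2 and 3 and vehicle 24 h replicate 2, each left out alone (adjusted p = 0.052 to 0.053) or with the compared groups alone (0.21, adjusted p = 0.11).

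MAP1LC3B, encoding LC3B, the family member most often used as a marker of autophagosomes, went the other way. It stood at 9.79, 9.64 and 9.59 on the 40 nM arrays at 24 h, against 9.89, 9.86 and 9.82 on the vehicle arrays, and at 10.09, 10.15 and 10.22 with vehicle at 48 h, 9.80, 9.84 and 9.77 at 10 nM and 10.00, 9.95 and 9.93 at 40 nM. All treated arrays lay below the vehicle arrays of their time. MAP1LC3B fell by 0.19 ± 0.06 (limma adjusted p = 0.032) at 24 h, 0.35 ± 0.06 (limma adjusted p = 0.00059) at 10 nM and 0.20 ± 0.06 (limma adjusted p = 0.034) at 40 nM and 48 h. MAP1LC3B no longer passed at 24 h without 40 nM 24 h replicates 2 and 3 and vehicle 24 h replicates 1 and 2, each left out alone (adjusted p = 0.076 to 0.12), with cyclic loess (-0.17, adjusted p = 0.070), with its probe sets averaged (-0.05, adjusted p = 0.52) or with the compared groups alone (-0.19, adjusted p = 0.17). MAP1LC3B no longer passed at 40 nM and 48 h without 40 nM 48 h replicates 1, 2 and 3 and vehicle 48 h replicates 2 and 3, each left out alone (adjusted p = 0.054 to 0.14), with cyclic loess (-0.18, adjusted p = 0.061) or with the replicate block (-0.20, adjusted p = 0.053). GABARAP itself stood at 11.80, 11.79 and 11.89 on the 40 nM arrays at 24 h, against 11.70, 11.71 and 11.78 on the vehicle arrays, and at 12.10, 12.04 and 12.04 with vehicle at 48 h, 12.03, 12.02 and 12.06 at 10 nM and 12.04, 12.01 and 12.11 at 40 nM. It passed in none, with changes of 0.10 ± 0.05 (95% interval -0.02 to 0.21), -0.02 ± 0.05 (-0.13 to 0.09) and -0.01 ± 0.05 (-0.12 to 0.11). GABARAP did pass at 24 h in 3 of 25 alternatives (adjusted p = 0.035 to 0.049).

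**Figure D4:**
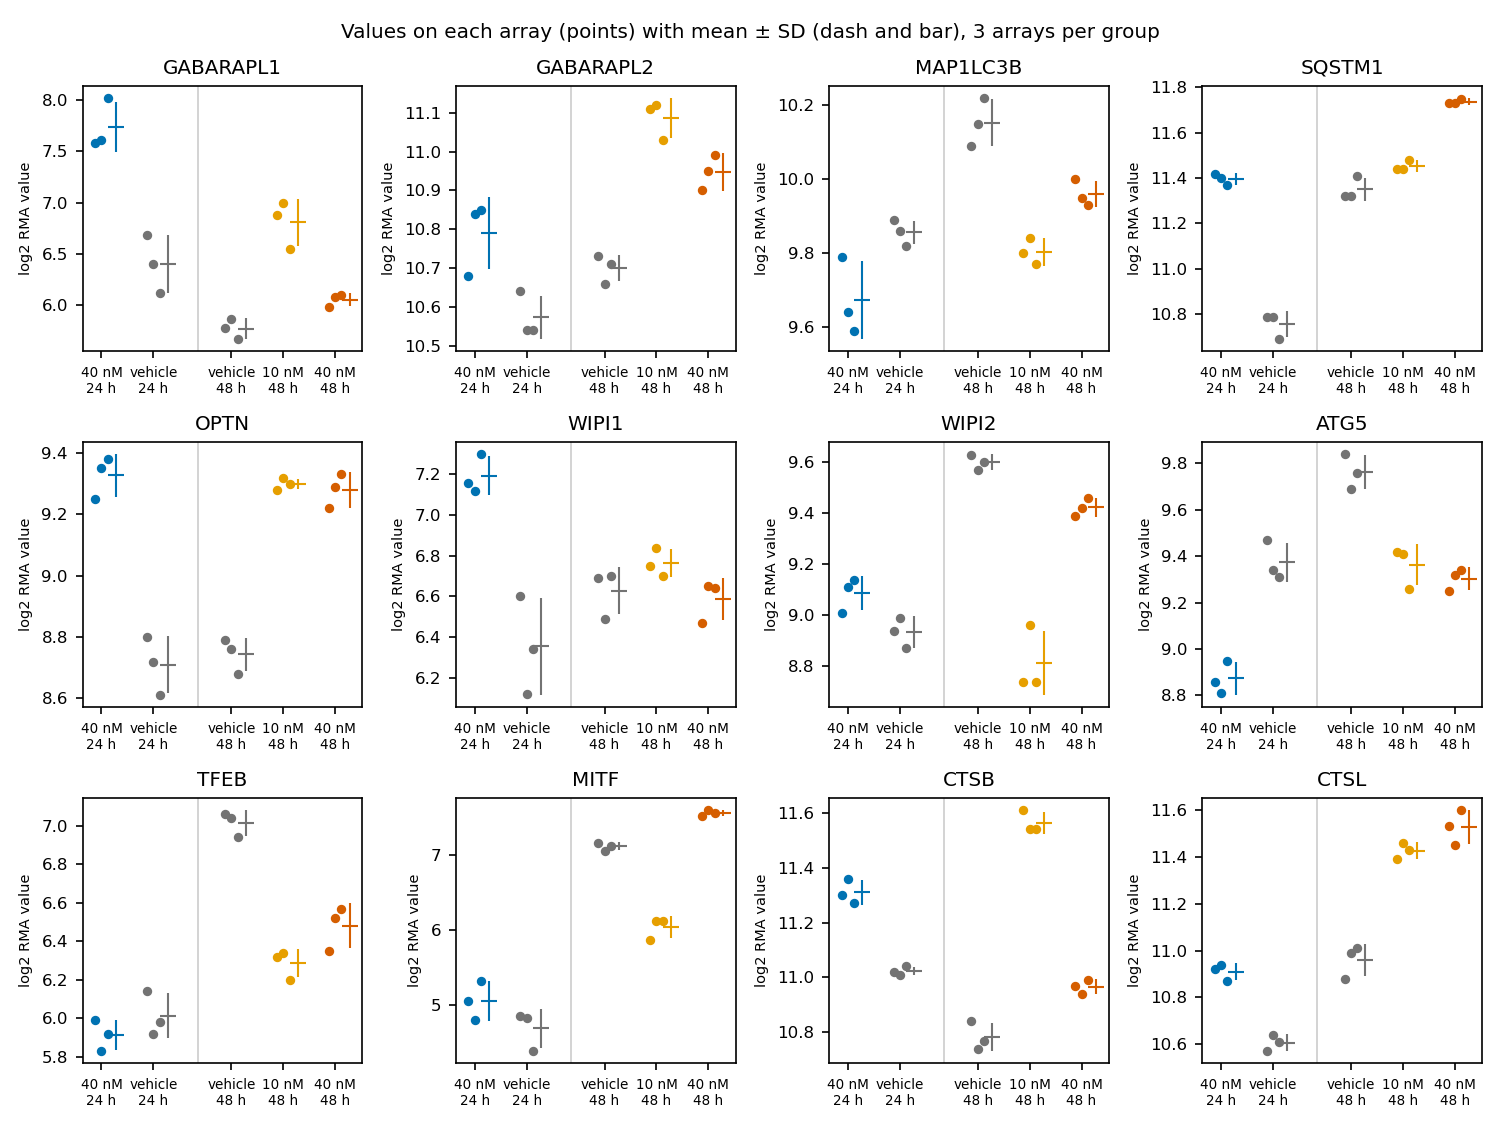
Log2 RMA value on each array (points) with the group mean and SD (dash and bar, n = 3) for 12 of the genes whose values are given, with the 24 h groups to the left of the line and the 48 h groups to its right in order of dose. MITF and TFEB lie below vehicle at 10 nM, OPTN lies above vehicle in all 3 treated groups, and the WIPI1 arrays lie clear of vehicle at 24 h.

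All 3 cargo receptors rose at 24 h, where 14.8% of all genes and 22.5% of the 11865 brighter genes rose. The call of NBR1 lay near the threshold and ended in 15 of 25 alternatives. SQSTM1, the receptor for ubiquitinated cargo that is also known as a target of NRF2 (chr5:179806393-179838078), stood at 11.42, 11.40 and 11.37 on the 40 nM arrays at 24 h, against 10.79, 10.79 and 10.69 on the vehicle arrays. The groups are far apart, and it rose by 0.64 ± 0.05 (limma adjusted p = 2.7e-07), or 1.56-fold. At 48 h it stood at 11.32, 11.32 and 11.41 with vehicle, 11.44, 11.44 and 11.48 at 10 nM and 11.73, 11.73 and 11.75 at 40 nM. It rose by 0.39 ± 0.05 (limma adjusted p = 7.7e-05) at 40 nM, and at 10 nM its change of 0.10 ± 0.05 did not pass (limma adjusted p = 0.18). SQSTM1 did pass at 10 nM in 4 of 25 alternatives (adjusted p = 0.00049 to 0.036), among them with its probe sets averaged (0.23, adjusted p = 0.0086) and without _x_at and _s_at sets (0.58, adjusted p = 0.00049). Of its 4 other sets, 2 were higher at 24 h (0.62 ± 0.09 and 0.53 ± 0.10) and 2 were lower (-0.53 ± 0.10 and -0.19 ± 0.12). SQSTM1 no longer passed at 40 nM and 48 h without _x_at and _s_at sets (0.16, adjusted p = 0.37).

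OPTN, encoding optineurin, a receptor for mitochondria and bacteria, stood at 9.25, 9.35 and 9.38 on the 40 nM arrays at 24 h, against 8.80, 8.72 and 8.61 on the vehicle arrays, and at 8.79, 8.76 and 8.68 with vehicle at 48 h, 9.28, 9.32 and 9.30 at 10 nM and 9.22, 9.29 and 9.33 at 40 nM. Every treated array lay above every vehicle array of its time, and both 48 h doses reached like levels. The rises were 0.61 ± 0.06 (limma adjusted p = 2.8e-06), 0.55 ± 0.06 (limma adjusted p = 1.1e-05) and 0.53 ± 0.06 (limma adjusted p = 2.6e-05), and between the doses the difference was -0.02 ± 0.06 (95% interval -0.15 to 0.11). A second set gave larger rises, 0.96 ± 0.06, 1.04 ± 0.06 and 1.18 ± 0.06. NBR1, a relative of SQSTM1, rose by 0.20 ± 0.07 (limma adjusted p = 0.040) at 24 h and did not pass at 48 h. NBR1 no longer passed at 24 h without any 1 array other than vehicle 24 h replicate 1, 10 nM replicates 2 and 3 and vehicle 48 h replicate 1 (adjusted p = 0.050 to 0.15), with its probe sets averaged (0.06, adjusted p = 0.65), without _x_at and _s_at sets (-0.13, adjusted p = 0.55), with the replicate block (0.20, adjusted p = 0.057) or with the compared groups alone (0.20, adjusted p = 0.13). NBR1 did pass at 10 nM in 1 of 25 alternatives (adjusted p = 0.047).

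The effect of 40 nM differed between the times for 13 of the 39 genes, 2 more positive and 11 more negative at 48 h than at 24 h, where 17.3% of all genes passed this test, 9.18% more positive and 8.11% more negative. Among the 11865 brighter genes 26.8% passed, 14.1% more positive and 12.7% more negative, beside 33.3% of the members. The largest differences, 48 h minus 24 h, were those of GABARAPL1 (-1.06 ± 0.21, limma adjusted p = 0.0028), WIPI1 (-0.88 ± 0.15, limma adjusted p = 0.00087), ULK1 (-0.76 ± 0.12, limma adjusted p = 0.00035), ATG2A (-0.53 ± 0.12, limma adjusted p = 0.0086) and ATG14 (-0.51 ± 0.11, limma adjusted p = 0.0061). All 5 were higher than vehicle at 24 h, and at 48 h their changes ran from -0.47 ± 0.08 (ULK1) to 0.27 ± 0.15 (GABARAPL1). The median difference over the 39 was -0.11, beside -0.004 over all genes. Of the 12 lysosomal genes 1 passed higher (CTSL) and 1 lower (ATP6V1A). Fewer members passed when an array was left out: 7 without vehicle 48 h replicate 1, vehicle 48 h replicate 3 or 40 nM 48 h replicate 1, and 8 without 40 nM 48 h replicate 2 or 3. With the replicate block 8 passed. A step shared by all arrays of a time drops out of this difference, but a difference in scale between the arrays of the times does not. Such a difference and the time of exposure cannot be told apart here.

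**Figure D5:**
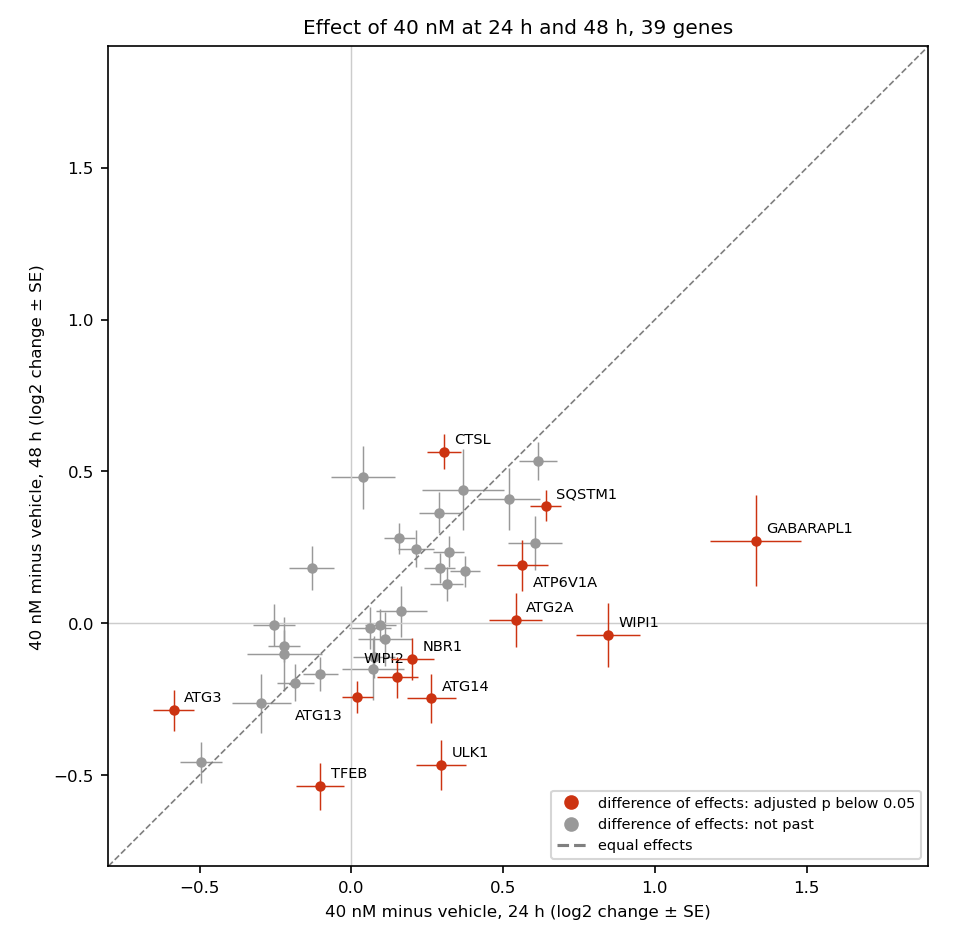
Effect of 40 nM at 48 h (vertical axis) against its effect at 24 h (horizontal axis) as log2 changes with standard errors, for the 39 genes. Red points passed limma's test of the difference (adjusted p below 0.05), and GABARAPL1, WIPI1, ATG2A and ULK1 lie well below the dashed line of equal effects.

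Between the doses at 48 h, 10 of the 39 genes were higher at 40 nM than at 10 nM and 8 lower, where 26.4% of all genes passed, 11.9% higher and 14.5% lower, and the median of the 39 was 0.12. Among the 11865 brighter genes 39.6% passed, beside 46.2% of the members. MITF differed most, by 1.52 ± 0.13 (limma adjusted p = 1.4e-06). ATP6V0D1 (0.66 ± 0.05), WIPI2 (0.61 ± 0.07), ATG4A (0.51 ± 0.10) and BECN1 (0.43 ± 0.07) were also higher at 40 nM. GABARAPL1 (-0.76 ± 0.15) and CTSB (-0.59 ± 0.05) were lower at 40 nM than at 10 nM. For CTSL (0.10 ± 0.06, 95% interval -0.02 to 0.22) and GABARAPL2 (-0.14 ± 0.06, -0.27 to -0.01) the doses did not pass against each other. Here, too, dose and the state of the 10 nM arrays cannot be told apart. BECN1 no longer passed between doses without _x_at and _s_at sets (-0.02, adjusted p = 0.95).

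Other genes of the same pathways were counted from 5 further lists, of which 122 of 132 genes were measured. At 24 h 50 rose and 20 fell (median 0.11), at 10 nM 36 rose and 26 fell (median 0.08), and at 40 nM and 48 h 35 rose and 17 fell (median 0.08). These are 57.4%, 50.8% and 42.6% of the 122, beside 31.5%, 26.3% and 21.3% of all genes and 48.1%, 39.6% and 32.7% of the brighter ones. Of 31 other hydrolases and their activators 17 rose and 2 fell at 24 h (median 0.29), 14 rose and 5 fell at 10 nM (median 0.18), and 17 rose and 3 fell at 40 nM and 48 h (median 0.21). The largest were those of the cathepsins: CTSS by 1.62 ± 0.11 (3.07-fold) and CTSO by 0.96 ± 0.08 at 40 nM and 48 h, and CTSH by 0.92 ± 0.06 at 10 nM. The largest falls, at 10 nM, were of LIPA, the lysosomal acid lipase, by 0.56 ± 0.07, GUSB, the beta-glucuronidase, by 0.41 ± 0.08, and CTSK by 0.31 ± 0.10. GUSB no longer passed at 10 nM with its probe sets averaged (-0.05, adjusted p = 0.70). CTSK no longer passed at 10 nM without 10 nM replicates 1 and 2 and vehicle 48 h replicates 1, 2 and 3, each left out alone (adjusted p = 0.080 to 0.12) or with an intensity trend (-0.31, adjusted p = 0.053).

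Of 19 other lysosomal membrane and sorting proteins 10 rose and 1 fell at 24 h (median 0.28), 7 and 3 at 10 nM (median 0.12), and 6 and 1 at 40 nM and 48 h (median 0.10). The share that passed was 57.9%, 52.6% and 36.8%, beside 31.5%, 26.3% and 21.3% of all genes. Among the brighter genes it was 48.1%, 39.6% and 32.7%, near that of the list at 40 nM and 48 h. SLC17A5, which exports sialic acid from the lysosome, rose by 1.66 ± 0.12 at 24 h, or 3.17-fold. IGF2R, the receptor that sorts hydrolases by mannose 6-phosphate, rose by 0.82 ± 0.06 at 24 h, and OSTM1, a partner of a lysosomal chloride transporter, by 0.88 ± 0.09 at 40 nM and 48 h. CTNS, the cystine exporter, fell by 1.02 ± 0.10 at 24 h. NPC2, a cholesterol carrier, fell by 0.57 ± 0.06 at 40 nM and 48 h, and CLN3 fell by 0.26 ± 0.06 at 10 nM but rose by 0.41 ± 0.06 at 24 h. IGF2R no longer passed at 24 h without _x_at and _s_at sets (0.20, adjusted p = 0.42).

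Of 13 other V-ATPase subunits 6 rose and 4 fell at 24 h, 6 and 4 at 10 nM, and 6 and 1 at 40 nM and 48 h, with medians of 0.05, 0.09 and 0.09. The share that passed was 76.9%, 76.9% and 53.8%, beside 31.5%, 26.3% and 21.3% of all genes and 48.1%, 39.6% and 32.7% of the brighter ones. ATP6V1E1 rose by 0.47 ± 0.07 at 40 nM and 48 h, ATP6V0A1 by 0.45 ± 0.06 at 10 nM and ATP6V1G1 by 0.41 ± 0.05 at 24 h. At 10 nM ATP6V1B2 fell by 0.71 ± 0.08, ATP6V0E2 by 0.45 ± 0.06 and the accessory subunit ATP6AP1 by 0.35 ± 0.08, while ATP6AP1 rose by 0.33 ± 0.08 at 24 h. ATP6V0A1 no longer passed at 10 nM with its probe sets averaged (0.21, adjusted p = 0.082).

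Of 30 other autophagy genes 8 rose and 6 fell at 24 h, 8 and 6 at 10 nM, and 3 and 6 at 40 nM and 48 h, with medians of 0.02, -0.03 and 0.003. The share that passed, 46.7% at 24 h, lay below that of the brighter genes there and again at 40 nM and 48 h. VAMP8, a SNARE of the fusion with lysosomes, rose by 1.36 ± 0.18 at 10 nM. Its signal was dim, at 4.09, 3.62 and 4.38 with vehicle at 48 h and 5.38, 5.71 and 5.10 at 10 nM. DRAM1, a lysosomal membrane protein known as a p53 target, rose by 1.21 ± 0.07 at 40 nM and 48 h, and PIK3C3, the catalytic subunit of the lipid kinase complex, by 0.49 ± 0.12 at 24 h. VMP1, a protein of the endoplasmic reticulum needed for autophagosome formation, fell by 0.77 ± 0.08 at 40 nM and 48 h and by 0.39 ± 0.08 at 24 h, and rose by 0.48 ± 0.08 at 10 nM. MAP1LC3A fell by 0.49 ± 0.09 at 10 nM and ATG10, which conjugates ATG12, by 0.48 ± 0.10 at 24 h.

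Of 29 regulators of mTORC1 and TFEB 9 rose and 7 fell at 24 h, 1 and 8 at 10 nM, and 3 and 6 at 40 nM and 48 h, with medians of -0.001, 0.02 and -0.09. The share that passed was 55.2%, 31.0% and 31.0%, beside 31.5%, 26.3% and 21.3% of all genes. Among the brighter genes it was 48.1%, 39.6% and 32.7%, above that of the list in the last 2. RRAGB, a Rag GTPase that brings mTORC1 to the lysosome, rose by 1.31 ± 0.07 at 24 h, or 2.48-fold, and PRKAA2, a catalytic subunit of AMPK, by 0.78 ± 0.14. Of the sestrins, which restrain mTORC1, SESN1 rose by 0.99 ± 0.08 at 40 nM and 48 h. SESN2 fell by 0.90 ± 0.06 at 24 h, which is a different comparison. FNIP2, a partner of folliculin, fell by 0.74 ± 0.15 at 24 h, and DDIT4, an inhibitor of mTORC1, by 0.59 ± 0.05 at 40 nM and 48 h. All the changes named from these lists passed limma's adjusted p of 0.05.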

How the data were processed

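Total RNA of 15 A549 samples was hybridised to 1 array each. The values are log2 expression values as deposited by the authors, 1 for each probe set and array. Per the submitters' processing notes they were made with RMA in Affymetrix Expression Console, whose version was not given in the sources used here. This method subtracts background, equalises the arrays by quantiles and summarises each probe set. Of 54675 probe sets, 62 are controls, 41091 have 1 symbol (41037 checked by gene ID), 1801 have several and name no gene, and 11721 are unnamed here.

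With limma 3.58.1 (R 4.3.3), group means were fitted over all 15 arrays by lmFit and eBayes with 10 residual degrees of freedom, and two-sided p-values were adjusted by Benjamini-Hochberg over 19775 genes with a threshold of 0.05. "±" after a log2 change is its standard error, whose median over genes was 0.097. Arrays carry no read depth, and their number limits the precision. The fit was tested on simulated data.

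The members and lists were chosen with earlier results of these data known. Values on every array are given for members that passed with a change of at least 0.5 against vehicle, for the 4 ATG8 genes and for the 3 MiT/TFE factors, and each further list names up to 3 rises and 3 falls. Pathway genes without a single-symbol set were not analysed here. Alternatives covered normalization, scaling, a floor, a filter, the probe set, the replicate number as a block, the prior, array weights, the samples in the fit and each array left out. Same-numbered arrays of a time did not deviate together (median r -0.12 over 12 pairs), so the numbers are not taken as pairing the arrays.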

Additional observations from a re-analysis of the deposited data

Results flagged for a closer look

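For 13 genes the effect of 40 nM at 48 h differed from that at 24 h in limma's test of the difference, and they are listed here because of that test. Time of exposure and a difference in scale between the arrays of the times cannot be told apart in it. The differences, 48 h minus 24 h on the log2 scale, were -1.06 for GABARAPL1, -0.88 for WIPI1, -0.76 for ULK1, -0.53 for ATG2A, -0.51 for ATG14, -0.43 for TFEB, -0.37 for ATP6V1A, -0.33 for WIPI2, -0.32 for NBR1, -0.26 for ATG13 and -0.25 for SQSTM1, all more negative at 48 h. The difference was 0.30 for ATG3 and 0.26 for CTSL, more positive at 48 h. GABARAPL1, WIPI1, ULK1, ATG2A and ATG14 passed this test in every alternative that measured them. ATG3 no longer passed between times without any 1 array other than 40 nM 24 h replicate 3, vehicle 24 h replicate 3 and 10 nM replicate 3 (adjusted p = 0.058 to 0.11), with the replicate block (0.30, adjusted p = 0.065) or with the compared groups alone (0.30, adjusted p = 0.053). CTSL no longer passed between times without any 1 array other than vehicle 24 h replicate 1, 40 nM 48 h replicate 2, 10 nM replicates 2 and 3 and vehicle 48 h replicate 3 (adjusted p = 0.051 to 0.10), with cyclic loess (0.26, adjusted p = 0.055), with the replicate block (0.26, adjusted p = 0.058) or with the compared groups alone (0.26, adjusted p = 0.062). ATP6V1A no longer passed between times without any 1 array other than 40 nM 24 h replicate 2 and vehicle 24 h replicate 1 (adjusted p = 0.050 to 0.11), with its probe sets averaged (-0.40, adjusted p = 0.096), without _x_at and _s_at sets (-0.37, adjusted p = 0.061), with the replicate block (-0.37, adjusted p = 0.056) or with the compared groups alone (-0.37, adjusted p = 0.076). NBR1 no longer passed between times without any 1 array other than 40 nM 24 h replicate 2, vehicle 24 h replicate 1 and 10 nM replicates 2 and 3 (adjusted p = 0.055 to 0.10), with its probe sets averaged (-0.22, adjusted p = 0.18), without _x_at and _s_at sets (-0.02, adjusted p = 0.98) or with the replicate block (-0.32, adjusted p = 0.059). ATG13 no longer passed between times without vehicle 24 h replicate 2, 40 nM 48 h replicates 1 and 3 and vehicle 48 h replicates 1 and 3, each left out alone (adjusted p = 0.050 to 0.066) or with its probe sets averaged (-0.21, adjusted p = 0.076). SQSTM1 no longer passed between times without 40 nM 24 h replicate 1, vehicle 24 h replicate 3, 40 nM 48 h replicates 1 and 2 and vehicle 48 h replicate 3, each left out alone (adjusted p = 0.051 to 0.076), with its probe sets averaged (-0.02, adjusted p = 0.92), without _x_at and _s_at sets (-0.37, adjusted p = 0.11) or with the replicate block (-0.25, adjusted p = 0.050). WIPI2 no longer passed between times without 40 nM 24 h replicates 2 and 3, vehicle 24 h replicate 3, 40 nM 48 h replicates 1 and 2 and vehicle 48 h replicates 1 and 3, each left out alone (adjusted p = 0.055 to 0.065), with its probe sets averaged (-0.23, adjusted p = 0.053) or without _x_at and _s_at sets (0.04, adjusted p = 0.90). TFEB no longer passed between times with its probe sets averaged (-0.23, adjusted p = 0.11).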

How the results depend on the processing

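The choice of probe set moved the counts of calls. Without probe sets ending in _x_at or _s_at, 30 of the 39 genes were measured and 15 passed at 24 h, 7 at 10 nM, 8 at 40 nM and 48 h, and 6 in the difference between times. With the compared groups alone 16 passed at 24 h. With array weights, whose estimate stopped before convergence, 23 passed at 10 nM, and over all genes 8036 did, with 5851 in the difference between times. Leaving out 1 array gave 20 to 25 members at 24 h, 14 to 15 at 10 nM, 14 to 22 at 40 nM and 48 h, 15 to 20 between doses and 7 to 13 between times. With the replicate number as a block, which the arrays do not bear out as a pairing, 23, 15, 16 and 16 members passed in the first 4 of these comparisons and 8 between times.

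Some directions turned with the probe set. Without _x_at and _s_at sets, BECN1 was -0.10 and NBR1 -0.13 and HEXA -0.051 at 24 h, ATG3 was 0.27 at 40 nM and 48 h, WIPI2 was 0.041 between times, and between doses BECN1 was -0.020, HEXA -0.073 and SQSTM1 -0.42 (limma adjusted p = 0.0060). With all probe sets of a gene averaged, LAMP2 was 0.44 at 24 h and 0.46 at 40 nM and 48 h, and between doses SQSTM1 was -0.039 and HEXA -0.0085. Of 5569 values for single genes under these alternatives, 260 no longer passed, 149 newly passed and 12 turned direction. The other 5148 kept their side of the threshold. Direction was compared only where the main fit or the alternative passed. Many of these fits cannot move the estimate, such as those that leave out an array of a group not compared. Without _x_at and _s_at sets 142 values kept their side, 18 no longer passed, 2 newly passed and 8 turned. Signal over background limits what dim probe sets can show.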
